A study of Danio rerio with 6 samples.

Results

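The genes described here encode the core proteins and regulators of the spliceosome, taken as every gene in the table whose symbol begins with srsf, hnrnp, snrp, sf3a, sf3b or prpf. There were 75 such rows of 32057 listed genes, with 73 different symbols. They comprised 17 SR genes (srsf), 24 hnRNP genes, 12 snRNP protein genes (snrp), 9 SF3 genes and 13 PRPF genes. Messenger RNA had been sequenced from single whole zebrafish (Danio rerio) embryos at the 10-somite stage. The labels gave 3 embryos the genotype 3etv, Pea3 triple mutants, and 3 the genotype WT, wild type. The labels do not name the mutated Pea3 genes, the alleles, the clutch or the line, so a difference of clutch or line cannot be told apart from one of genotype. Nothing in the labels says whether the embryos of a group shared parents, so p-values measure only the spread between these embryos.

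Splicing removes introns from transcripts and is carried out by small nuclear ribonucleoproteins (snRNPs), particles of a short RNA and proteins. Most of these RNAs are wrapped by a ring of Sm proteins, and further proteins mark out single particles. SF3A and SF3B belong to the U2 snRNP, which recognises the branch site of the intron, and the PRPF proteins, named after yeast Prp genes, serve mostly in later assembly and activation. SR proteins bind exons and largely promote their use, while hnRNP proteins often oppose it. Many of the zebrafish genes exist as a and b copies left by the genome duplication of teleost fish. The Pea3 genes encode ETS transcription factors that act downstream of fibroblast growth factor signalling.

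Gene counts totalled between 18484238 and 21865288 in the 3etv libraries and between 22446699 and 28841169 in the WT libraries, so that each 3etv library was shallower than each WT library. Reads with several alignments made up from 5.12% to 5.75% of the table in 3etv embryos and from 5.32% to 6.38% in WT embryos. The 4 Pea3 genes summed to between 135.7 and 158 CPM in 3etv and between 358 and 375 CPM in WT, and 3 of them were lower in 3etv, while etv4 did not pass (log2 change -0.52, edgeR adjusted p 0.057). Even so, etv4 had between 45.9 and 77.7 CPM in 3etv, below the 86.0 to 89.8 CPM of WT. Of the 3 lower genes, etv1 was scarce, at between 0.44 and 0.64 CPM in 3etv and between 1.08 and 1.65 CPM in WT. Which genes are mutated was not read from these levels. None of the 8 markers of embryo regions was at 0 in all libraries, and of the 7 tested, 2 were higher in 3etv and 2 lower. The median log2 fold change over all tested genes was 0.0035. Levels are given as CPM, counts per 1000000 gene counts after TMM scaling, per embryo in the order of replicate numbers. CPM is not corrected for gene length, so levels are compared between groups and not between genes.

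Most splicing factor genes differed little between 3etv and WT embryos. Of 73 tested members, 17 (23.3%) passed the threshold, an edgeR adjusted p under 0.05 over all tested genes, and 56 did not. Among all 18533 tested genes, 31.3% passed. Within the set, 14 members were lower in 3etv and 3 were higher, whereas over all tested genes 15.4% were lower and 15.9% higher. The median log2 fold change of the members, 3etv over WT, was -0.045. Their largest fall was -0.85 (srsf3a) and their largest rise was 0.74 (hnrnph3), so none of the 73 reached 1 log2 unit. The log2 fold change was under 0.5 in size for 70 of the 73. Without 3etv embryo 2, 11 members passed, 8 of them lower in 3etv, against 22.3% of all genes tested without it.

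Members were mostly abundant, and 62 of the 73 had a mean of at least 6 log2 CPM, a bound chosen after their levels were seen. Among the 2709 tested genes above it, 10.7% were higher in 3etv and 20.2% lower, and the median log2 fold change was -0.044. Changes of at least 1 log2 unit were found in 27 of those 2709 genes and changes under 0.5 in 2579, so that small changes were usual at such levels. Variation between embryos was small: the median coefficient of variation of the members was 3.90% in 3etv and 4.26% in WT, against 10.3% and 9.72% over all tested genes. Above the bound of 6 log2 CPM it was 3.86% in 3etv and 3.77% in WT for the members, against 5.05% and 4.75% for all genes. The median standard error of the members' log2 fold changes was 0.060. Values of the 3 3etv and 3 WT embryos did not overlap for 28 members, 21 of them below WT and 7 above it. Over all tested genes 45.1% did not overlap, 22.4% lying below WT and 22.7% above it. Of the 2709 tested genes above the bound of 6 log2 CPM, 1237 did not overlap, 794 of them below WT and 443 above it.

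**Figure D1:**
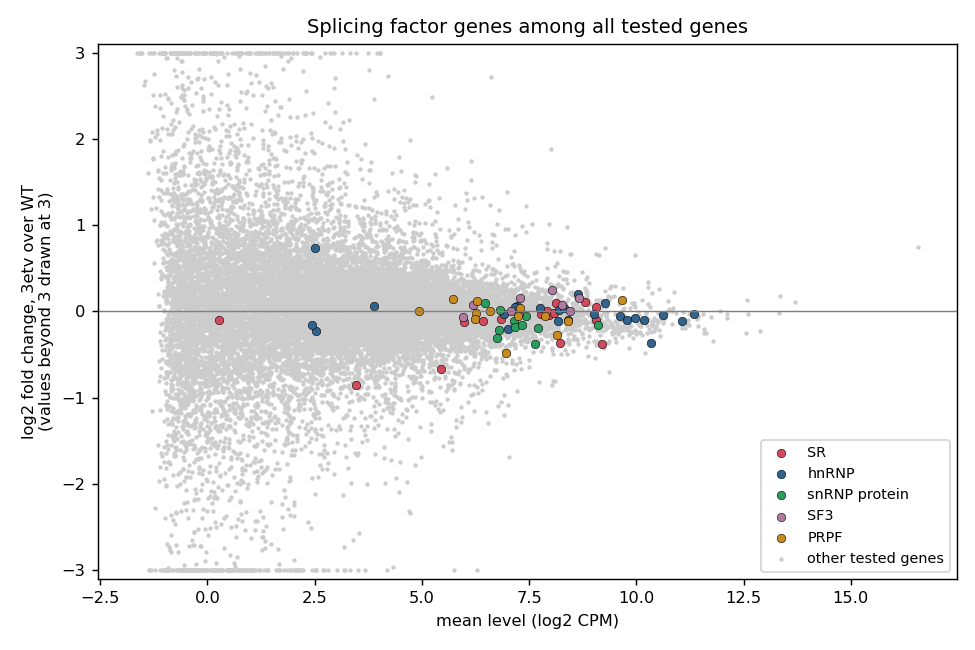
Log2 fold change (3etv over WT) against mean level (log2 CPM) for the 73 tested splicing factor genes, coloured by class, and for the other tested genes in grey, with changes beyond 3 log2 units drawn at 3. The members lie mostly at high levels and between -0.85 and 0.74 on the vertical axis.

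The classes differed in how many of their members passed. Lower in 3etv were 6 of 11 tested snRNP protein genes, 4 of 16 SR genes, 2 of 24 hnRNP genes, 2 of 13 PRPF genes and none of 9 SF3 genes. Higher were 2 hnRNP genes and 1 SF3 gene. As given above, 15.4% of all tested genes were lower and 15.9% higher, and 20.2% and 10.7% of those with at least 6 log2 CPM, where all 11 tested snRNP protein genes lie. Median log2 fold changes were -0.16 for snRNP protein genes, -0.092 for SR genes, -0.040 for hnRNP genes, -0.023 for PRPF genes and 0.068 for SF3 genes. Below 0 were 9 of 11 snRNP protein, 12 of 16 SR, 15 of 24 hnRNP, 8 of 13 PRPF and 2 of 9 SF3 genes. Over all tested genes 49.6% lay below 0, and 60.8% of those with at least 6 log2 CPM. Differences between the classes were not tested. Single embryos moved the smaller medians by more than 1.5 times: the hnRNP median was -0.022 without 3etv embryo 2 and -0.024 without WT embryo 2, and the SF3 median was 0.042, 0.035 and 0.041 without 3etv embryo 3, WT embryo 2 and WT embryo 3 in turn. The PRPF median was 0.0025 without WT embryo 2, and -0.062 and -0.058 without 3etv embryo 1 and WT embryo 1. The median over all members was -0.024 without 3etv embryo 2.

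**Figure D2:**
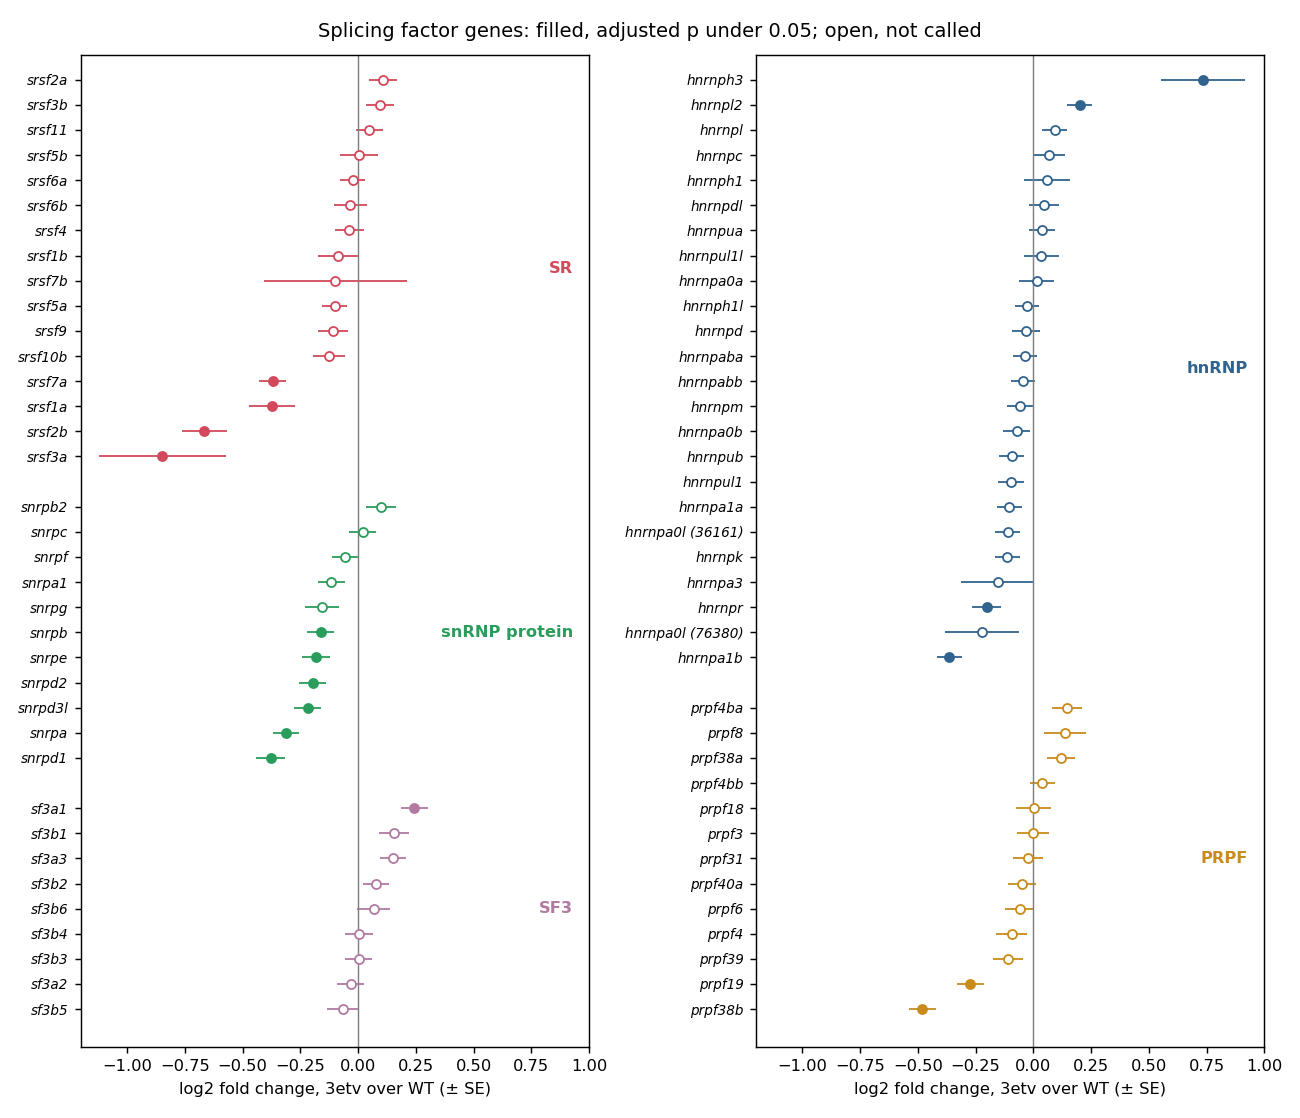
Log2 fold change, 3etv over WT, with its standard error (horizontal bar) for each tested member, grouped by class and sorted within it. Filled points passed an edgeR adjusted p under 0.05 and open points did not; the 2 rows of hnrnpa0l carry the last digits of their identifiers. Filled points lie to the left of 0 except for hnrnph3, hnrnpl2 and sf3a1.

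Embryos of 1 genotype also differed from each other, and the embryo with the highest value varied by class. This was not tested, and the shares were not computed for genes of at least 6 log2 CPM alone. Among the WT embryos, embryo 1 had the highest value for 12 of 16 SR genes and 9 of 11 snRNP protein genes, but for 2 of 13 PRPF genes and 2 of 9 SF3 genes. It was the highest WT embryo for 39.3% of all tested genes. PRPF genes were highest in WT embryo 2 for 10 of 13, against 29.4% of all tested genes. In 3etv, embryo 3 was highest for 9 of 16 SR genes, against 33.8% of all tested genes. 3etv embryo 1 was highest for 14 of 24 hnRNP, 6 of 11 snRNP protein, 6 of 9 SF3 and 8 of 13 PRPF genes. It was highest for 4 of 16 SR genes and for 34.3% of all tested genes. The SR genes summed to 3814, 3718 and 4032 CPM in 3etv embryos and to 4370, 4027 and 3932 CPM in WT embryos, so that 3etv embryo 3 lay above WT embryos 2 and 3. WT embryo 1 also had the highest share of reads aligned to more than 1 place, 6.38%, and the highest share of counts on mitochondrial genes, 3.15%, against between 2.45% and 3.07% in 3etv; the part of these in the SR values was not tested. Without WT embryo 1 the SR median log2 fold change was -0.015 and 3 SR genes were called, all lower. The snRNP protein median was then -0.14 with 4 genes called, all lower, while 14.8% of all tested genes were lower. Without 3etv embryo 1 the SR median was -0.043 and 2 SR genes were called, both lower, against 13.4% of all tested genes.

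**Figure D3:**
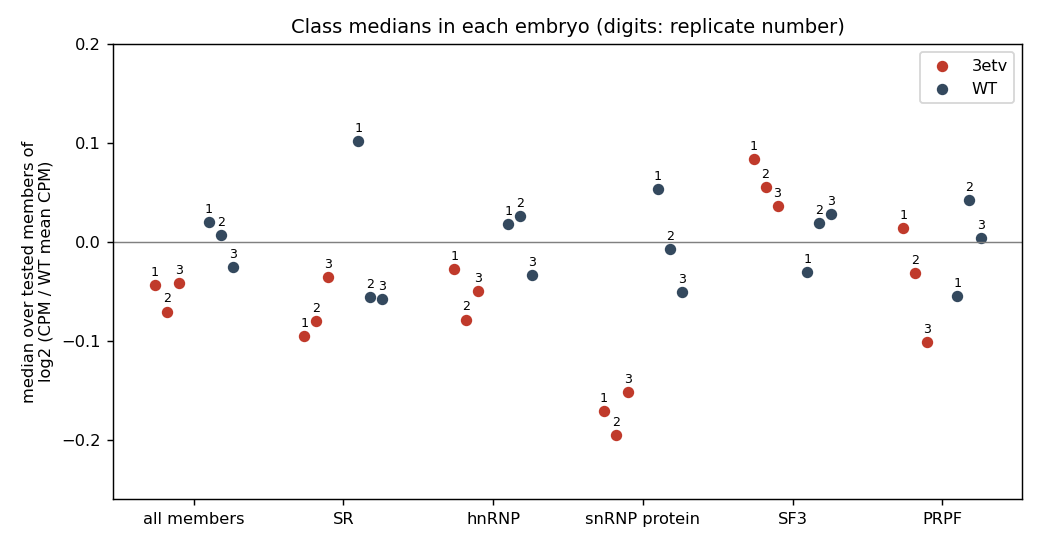
Median over the tested members of a class of log2 (CPM over the mean WT CPM) in each embryo, with 3etv in red and WT in dark blue and the replicate number above each point. The snRNP protein medians of the 3etv embryos lie between -0.20 and -0.15, below the WT medians, whereas SR medians overlap apart from WT embryo 1.

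Markers of some tissues differed between the genotypes in the same embryos. For comparison, 15.4% of all tested genes were lower in 3etv and 15.9% higher. All 7 tested muscle genes were lower in 3etv, and the muscle list summed to between 297.6 and 355 CPM in 3etv against between 524 and 615 CPM in WT. Presomitic mesoderm genes were lower for 8 of 9, summing to between 447 and 539 CPM in 3etv and between 640.1 and 754 CPM in WT. Neural progenitor genes were lower for 3 of 8, and early neuron genes for 3 of 5. Cell cycle genes were lower for 2 of 11, and their sums overlapped, at between 4113 and 4528 CPM in 3etv and between 4050 and 4601 CPM in WT. Of 6 periderm and epidermis genes, 2 were higher and 2 lower. No marker row was at 0 in all libraries. The part of these shifts in the splicing factor values was not tested, and in whole embryos fewer cells of a type cannot be told apart from less RNA per cell.

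SR proteins carry RNA-binding domains and a tail rich in arginine and serine. The SR gene with the clearest difference was srsf2b (ENSDARG00000103893), 1 of the copies of SRSF2, which in mammals binds exonic enhancers. It had 32.3, 34.5 and 33.7 CPM in 3etv embryos, against 62.3, 48.9 and 48.7 CPM in WT embryos. All 3etv values lay below all WT values, and WT embryo 1 was highest. The log2 fold change was -0.67 (SE 0.096, edgeR adjusted p 2.17e-04), a fall of 37.0% that passed in each of 14 alternative analyses. For called genes, here and below, the alternatives and the lack of overlap rest on the same embryos as the call and are no separate evidence.

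srsf7a (ENSDARG00000035325), whose mammalian counterpart SRSF7 also couples splicing to export, had 274.1, 243 and 269 CPM in 3etv and 335, 342 and 338 CPM in WT. The groups did not overlap, and the WT embryos were closer to each other than the 3etv embryos were. Its log2 fold change was -0.37 (SE 0.060, edgeR adjusted p 4.95e-04). srsf1a (ENSDARG00000057691), a copy of the founding SR gene SRSF1, had 503, 466 and 570.0 CPM in 3etv and 765, 630.3 and 598 CPM in WT. The highest 3etv embryo came close to the lowest WT embryo without overlap. The log2 change of -0.37 (SE 0.098, edgeR adjusted p 0.015) did not pass without 3etv embryo 1 (adjusted p 0.051).

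srsf3a (ENSDARG00000025397), a copy of SRSF3, the smallest of the classical SR proteins, had 6.16, 6.25 and 10.7 CPM in 3etv and 17.9, 10.02 and 13.7 CPM in WT. The highest 3etv embryo lay above the lowest WT embryo, so the groups overlapped. Its log2 change of -0.85 (SE 0.27) was just inside the threshold (edgeR adjusted p 0.049). It passed in 2 of 6 analyses that left out 1 embryo, failing without 3etv embryo 1 or 2 and without WT embryo 1 or 3. With all embryos but no low-count filter it failed as well (edgeR adjusted p 0.15). A second row with the symbol srsf3a (ENSDARG00000100815) had 0 counts in each library and was not tested. A count of 0 allows up to 3 counts, here between 0.138 and 0.166 CPM in 3etv libraries and between 0.103 and 0.134 CPM in WT libraries, for counting error only.

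The other 12 tested SR genes did not pass, with log2 fold changes between -0.13 (srsf10b) and 0.11 (srsf2a). srsf11, an SR-like protein with the highest CPM of the class after srsf1a, had 536, 530.4 and 566 CPM in 3etv and 560.1, 508 and 510.5 CPM in WT, with overlapping groups and a log2 change of 0.048 (edgeR adjusted p 0.57). In srsf1b, srsf2a, srsf4, srsf5b, srsf6b, srsf9 and srsf11 alike, WT embryo 1 was the highest WT embryo and 3etv embryo 3 the highest 3etv embryo. srsf7b was the least counted SR gene that was tested, with 17, 27 and 19 counts in 3etv and 31, 25 and 31 in WT, and its log2 change of -0.098 had a standard error of 0.31.

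**Figure D4:**
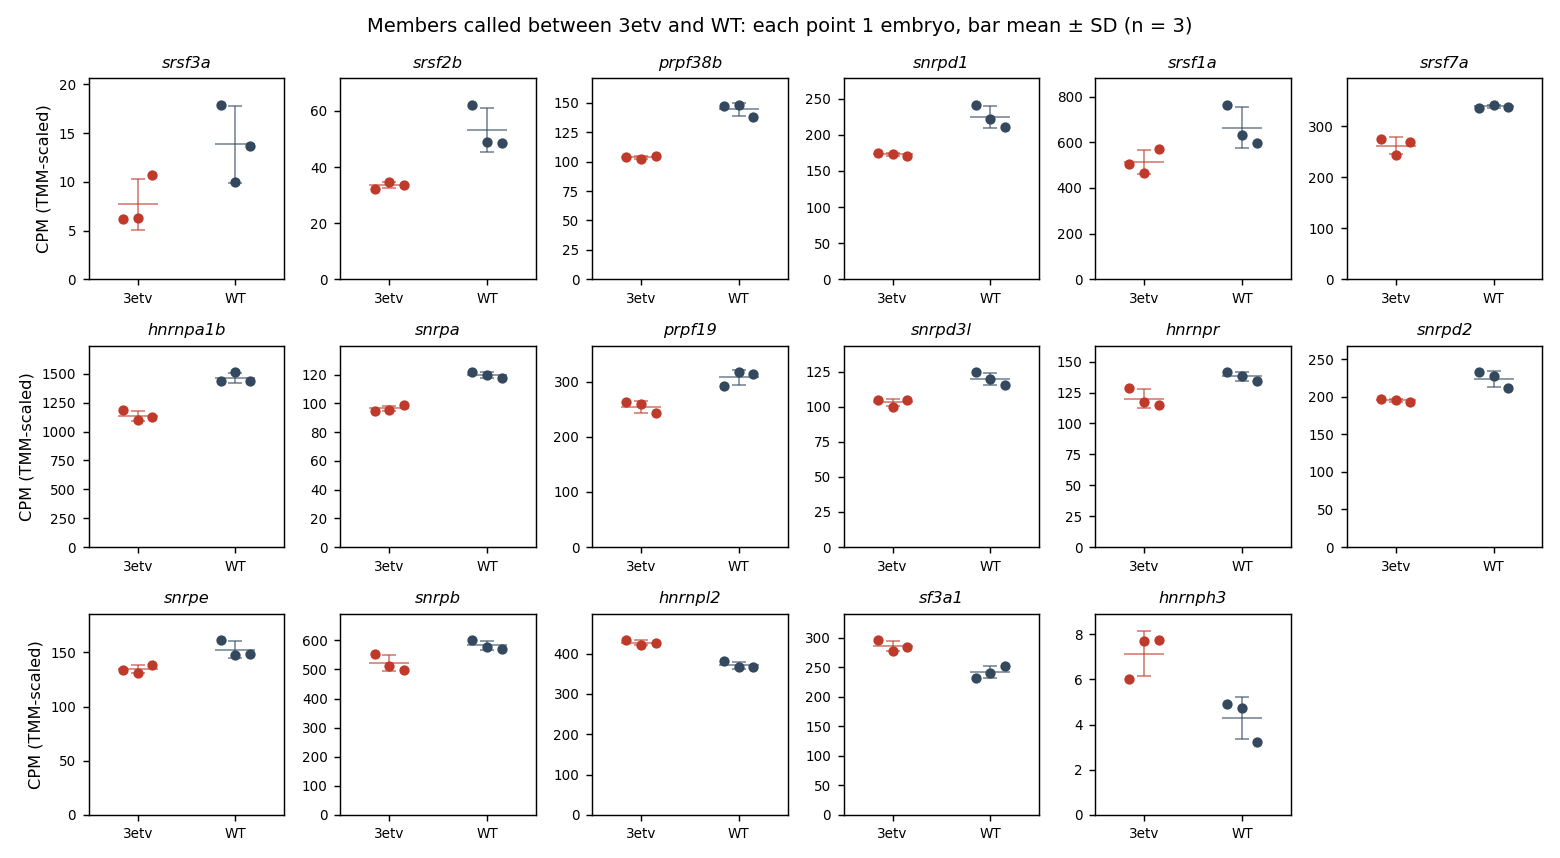
TMM-scaled CPM of the 17 members that passed the threshold, from the largest fall (srsf3a) to the largest rise (hnrnph3), with 3etv in red at the left and WT in dark blue at the right of each panel. Points are single embryos and bars are means with SD (n = 3). The groups overlap for srsf3a and for no other of the 17. These were called on the same values, so this is no separate evidence, and the share over all called genes was not computed.

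Among hnRNP genes, hnrnpa1b (ENSDARG00000036675) had the largest fall. Its product belongs to the hnRNP A/B family, which in mammals counteracts SR proteins at splice sites. It had 1185, 1098 and 1126 CPM in 3etv and 1437, 1512 and 1439 CPM in WT, and the groups did not overlap. The log2 fold change was -0.36 (SE 0.054, edgeR adjusted p 2.65e-04), and it passed in 14 of 14 alternatives. hnrnpr (ENSDARG00000014569), a relative of the RNA-binding protein SYNCRIP, had 128.5, 117.3 and 115 CPM in 3etv and 141.4, 138 and 135 CPM in WT, again without overlap. Its log2 change of -0.20 (SE 0.063, edgeR adjusted p 0.027) did not pass without 3etv embryo 2 or 3 or without WT embryo 2, where adjusted p-values reached 0.091.

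Higher in 3etv were hnrnpl2 and hnrnph3. hnrnpl2 (ENSDARG00000059303), a relative of HNRNPL, had 433, 421 and 426 CPM in 3etv and 381, 366 and 366 CPM in WT, a log2 change of 0.20 (SE 0.053, edgeR adjusted p 0.011). It lay above WT in every 3etv embryo but did not pass without WT embryo 2 (adjusted p 0.062) or WT embryo 3 (adjusted p 0.054). hnrnph3 (ENSDARG00000039466), of the hnRNP H family, had 112, 167 and 140 counts in 3etv and 110, 138 and 81 in WT. In CPM these were 6.0, 7.68 and 7.74 in 3etv and 4.91, 4.72 and 3.23 in WT, without overlap. The log2 fold change was 0.74 (SE 0.18, edgeR adjusted p 0.0077), and it passed in 14 of 14 alternatives.

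The remaining 20 hnRNP rows did not pass. The hnRNP gene with the highest CPM, hnrnpaba (ENSDARG00000007960), had 2526, 2466 and 2656 CPM in 3etv and 2649, 2654 and 2533 CPM in WT (log2 fold change -0.035, edgeR adjusted p 0.65). hnrnpa0l (ENSDARG00000036161) had 2073, 1993 and 2124 CPM in 3etv and 2307, 2208 and 2171 CPM in WT. Its groups did not overlap, yet the log2 change of -0.11 did not pass (SE 0.053, edgeR adjusted p 0.13). Another row with that symbol (ENSDARG00000076380) had between 4.31 and 6.12 CPM in 3etv and between 5.75 and 6.74 CPM in WT. A separate name table pairs its identifier with gzf1 instead, so whether it is an hnRNP gene is uncertain. hnrnpa0b and hnrnpa0l overlap each other in the RefSeq annotation of GRCz12tu, and how the authors' counting treats strand is not stated, so reads from the overlap cannot be assigned with certainty.

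Of the 11 tested snRNP protein genes 6, or 54.5%, were lower in 3etv, against 20.2% of all genes with at least 6 log2 CPM. Those that passed were the Sm ring genes snrpd1, snrpd2, snrpd3l, snrpe and snrpb, and snrpa, which encodes the A protein of the U1 snRNP. snrpd1 (ENSDARG00000011648) had 175, 173 and 171.0 CPM in 3etv and 242, 222 and 211 CPM in WT. The 3etv embryos were nearly equal and all below WT, where embryo 1 was highest. The log2 fold change was -0.38 (SE 0.062, edgeR adjusted p 5.41e-04). snrpa (ENSDARG00000018890) had 95.0, 95.7 and 98.8 CPM in 3etv and 121.5, 120.1 and 118 CPM in WT. The gap between the groups was far wider than the spread within either, at a log2 change of -0.31 (SE 0.058, edgeR adjusted p 0.0012). Both passed in 14 of 14 alternatives.

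The other called Sm genes changed less. snrpd3l (ENSDARG00000076283) had 105, 100.1 and 105 CPM in 3etv and 124, 119.6 and 116 CPM in WT, a log2 change of -0.22 (SE 0.060, edgeR adjusted p 0.014), which did not pass without 3etv embryo 2 (adjusted p 0.057). snrpd2 (ENSDARG00000040440) had 197, 195 and 194 CPM in 3etv and 232, 227 and 212 CPM in WT, a log2 change of -0.20 (SE 0.058, edgeR adjusted p 0.019), lost without 3etv embryo 2 or WT embryo 2. For both genes every 3etv embryo lay below every WT embryo. snrpe (ENSDARG00000033175) had 134, 131 and 139 CPM in 3etv and 161, 148 and 149 CPM in WT, and its log2 fold change was -0.18 (SE 0.060, edgeR adjusted p 0.036). snrpb (ENSDARG00000011125) had 552, 512 and 499 CPM in 3etv and 601, 579 and 569 CPM in WT, and its log2 fold change was -0.16 (SE 0.057, edgeR adjusted p 0.046). snrpe and snrpb each passed in 1 of 6 analyses that left out 1 embryo: snrpe passed only without 3etv embryo 3, and snrpb only without 3etv embryo 1. snrpb also failed under upper-quartile scaling. Without 3etv embryo 2, 2 snRNP protein genes were called in place of 6, fewer than the 3 SR genes called in that fit. There 11.2% of all tested genes were lower, against 15.4% with all embryos. Without WT embryo 2, 3 snRNP protein genes were called, and 11.5% of all tested genes were lower.

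Of the Sm ring genes that did not pass, snrpg had 149.7, 138 and 166 CPM in 3etv and 180.4, 168 and 157 CPM in WT, with overlapping groups (log2 fold change -0.16, edgeR adjusted p 0.13), and snrpf had a log2 change of -0.057. For proteins of single particles other than snrpa, the log2 fold change was 0.020 for snrpc of the U1 snRNP, and -0.12 for snrpa1 and 0.10 for snrpb2 of the U2 snRNP, and none passed. The row snrpd3 (ENSDARG00000013800) had 2, 3 and 4 counts in 3etv and 10, 4 and 1 in WT and was not tested. Between 0.102% and 0.211% of the counts on snrpd3 and snrpd3l fell on snrpd3 in 3etv, against between 0.034% and 0.357% in WT.

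Of 9 SF3 genes 1, sf3a1, passed, and it was higher in 3etv. sf3a1 (ENSDARG00000041887), the largest subunit of the SF3A complex, had 296, 278 and 284 CPM in 3etv and 232, 241 and 252 CPM in WT. The groups did not overlap, and the log2 fold change was 0.24 (SE 0.058, edgeR adjusted p 0.0059), passing in 14 of 14 alternatives. Just outside the threshold was sf3a3 (ENSDARG00000100114), another SF3A subunit, with 167, 168 and 160.3 CPM in 3etv and 148.5, 150.5 and 147 CPM in WT. Its groups did not overlap either (log2 fold change 0.15, SE 0.056, edgeR adjusted p 0.053). sf3b1 (ENSDARG00000056138), which contacts the branch site region, had 466, 424 and 400.0 CPM in 3etv and 364, 392 and 403 CPM in WT, with overlapping groups (log2 fold change 0.16, SE 0.066, edgeR adjusted p 0.092). The other 6 SF3 genes had log2 fold changes between -0.066 (sf3b5) and 0.077 (sf3b2). Of these, sf3b3 (ENSDARG00000103553) had 364, 355 and 338 CPM in 3etv and 331, 360.2 and 363 CPM in WT (log2 fold change 0.0029, edgeR adjusted p 0.98).

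In the PRPF class, prpf38b and prpf19 were lower in 3etv. prpf38b (ENSDARG00000053101), a relative of the yeast activation factor Prp38, had the lowest adjusted p of all members. It had 104, 102 and 105 CPM in 3etv and 147, 149 and 138 CPM in WT, a log2 change of -0.48 (SE 0.059, edgeR adjusted p 5.53e-05). prpf19 (ENSDARG00000015239), the ubiquitin ligase of the Prp19 complex, had 263, 259.8 and 243 CPM in 3etv and 292, 317 and 315 CPM in WT, a log2 change of -0.27 (SE 0.059, edgeR adjusted p 0.0036). Neither overlapped between groups, and both passed in 14 of 14 alternatives.

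The other 11 PRPF genes did not pass, with log2 fold changes between -0.11 (prpf39) and 0.15 (prpf4ba). prpf8 (ENSDARG00000026180), the central scaffold of the spliceosome, had 901, 882 and 766 CPM in 3etv and 665, 811 and 843 CPM in WT. Those groups overlapped, with 3etv embryo 3 and WT embryo 1 the lowest of their groups (log2 fold change 0.14, SE 0.090, edgeR adjusted p 0.28). prpf39 (ENSDARG00000100209), a U1-associated protein in yeast, had 341, 327 and 304 CPM in 3etv and 324, 362 and 361 CPM in WT, likewise with overlap (edgeR adjusted p 0.23).

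Copies of 1 gene were then compared within each embryo. A change in the log2 ratio of the a to the b copy does not depend on library scaling or on gene length. It was tested with limma over all 1853 a/b symbol pairs of the table, of which 29.6% passed. The rule found 12 pairs among the members, and 4 passed. It goes by symbol alone, and 1 of the 12, snrpa and snrpb, encodes unrelated proteins. prpf38a and prpf38b are separate genes in mammals too, and so are not copies from the fish duplication.

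The largest difference among called pairs was between srsf2a and srsf2b. Of the counts on both, srsf2a held 93.3%, 92.9% and 93.6% in 3etv and 87.9%, 89.4% and 89.8% in WT. The log2 ratio was higher in 3etv by 0.77 (SE 0.084, limma adjusted p 1.77e-04). srsf2a itself had 447, 453 and 494 CPM in 3etv and 452, 414 and 428 CPM in WT, a log2 change of 0.11 that did not pass (edgeR adjusted p 0.19). prpf38a held 43.5%, 44.2% and 43.7% of the counts on its pair in 3etv and 33.9%, 33.6% and 34.3% in WT. This ratio was higher in 3etv by 0.60 (SE 0.065, limma adjusted p 1.71e-04), with an SD between embryos of 0.020 in 3etv and 0.024 in WT. prpf38a had 80.4, 80.9 and 81.3 CPM in 3etv and 75.6, 75.2 and 72.4 CPM in WT, a log2 change of 0.12 that did not pass (edgeR adjusted p 0.14).

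hnrnpa1a held 48.9%, 49.97% and 49.3% of the counts on its pair in 3etv, against 45.6%, 45.0% and 44.1% in WT. Its ratio to hnrnpa1b was higher in 3etv by 0.26 (SE 0.039, limma adjusted p 0.0010). hnrnpa1a had 1136, 1096 and 1096 CPM in 3etv and 1205, 1237 and 1135 CPM in WT, a log2 change of -0.10 that did not pass. The ratio of srsf1a to srsf1b was lower in 3etv by a log2 difference of -0.29 (SE 0.059, limma adjusted p 0.0046), with 82.7%, 81.2% and 82.7% of the counts on srsf1a in 3etv and 85.1%, 84.8% and 85.1% in WT. srsf1b (ENSDARG00000017843) had 105, 108 and 119 CPM in 3etv and 134, 113 and 105 CPM in WT. WT embryo 1 was highest in both srsf1a and srsf1b, and the ratio was nearly the same in the WT embryos. In all 4 called pairs the embryos of the groups did not overlap in the ratio. The pairs were called on these same ratios, so this is no separate evidence, and the share over all pairs was not computed. Without the mean-variance trend in limma, the hnrnpa1 and srsf1 pairs did not pass (adjusted p 0.081 and 0.074), in a fit where 23.9% of all pairs did.

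The pair srsf3a and srsf3b was outside the rule because srsf3a stands on 2 rows. In a comparison added after the data were seen, which set aside the row with 0 counts, srsf3a held between 2.02% and 3.54% of the counts on the pair in 3etv and between 3.43% and 6.24% in WT. The log2 ratio differed by -0.95 (SE 0.24, limma adjusted p 0.016), in a fit where 29.5% of 1861 pairs passed. The embryos of the groups overlapped only in that the share of 3.54% in 3etv embryo 3 lay above 3.43% in WT embryo 2. The 8 other member pairs did not pass, and their log2 ratio differences ran from -0.28 for srsf7a over srsf7b (SE 0.21) to 0.13 for hnrnpua over hnrnpub (SE 0.051, limma adjusted p 0.073). For hnrnpaba over hnrnpabb the difference was 0.0094 (SE 0.039) and for srsf6a over srsf6b 0.0088 (SE 0.080). Reads that match both copies equally cannot be assigned to either, so shares within a pair cover the reads that could be.

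**Figure D5:**
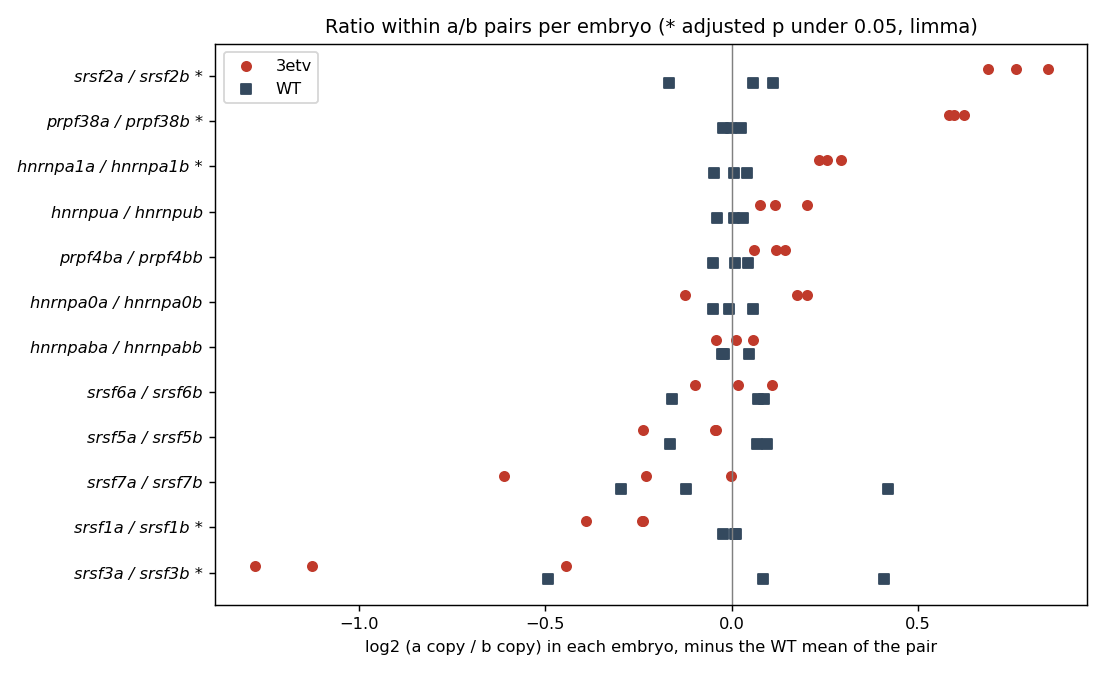
Log2 ratio of a to b copy in each embryo, less the mean WT ratio of the pair, with 3etv as red circles and WT as dark blue squares. The 3etv embryos lie to the right of WT for srsf2, prpf38 and hnrnpa1 and to the left for srsf1; srsf3 was added after the data were seen, and snrpa over snrpb is left out.

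Members with related names that the a/b rule does not reach were set side by side without a test. Of the counts on hnrnpl and hnrnpl2, hnrnpl held between 59.2% and 60.7% in 3etv and between 60.8% and 62.1% in WT. For hnrnpul1 and hnrnpul1l the share of hnrnpul1 was between 49.2% and 52.8% in 3etv and between 51.7% and 54.0% in WT. hnrnph1 held between 2.77% and 3.00% of the counts on itself and hnrnph1l in 3etv and between 2.5% and 2.93% in WT. The shares on hnrnpl did not overlap between the groups, but only narrowly, at 60.70% in 3etv embryo 1 and 60.76% in WT embryo 1. The other shares overlapped. How often such shares fail to overlap over all pairs was not computed.

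As to position, all 73 member symbols had a place in RefSeq's list for GRCz12tu. Neighbours within the set were hnrnpa0b and hnrnpa0l, hnrnpd and hnrnpdl, and hnrnpl and srsf7a. Of the last pair, srsf7a was lower in 3etv and hnrnpl was not called, at a log2 change of 0.092. Another gene overlaps 24 of the member symbols in that list, 5 of them called, namely srsf1a, srsf3a, snrpb, snrpd2 and hnrnpl2. Reads from genes that overlap these cannot be told apart without the strand setting.

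Other splicing genes, outside the symbol rule, were read from 9 lists. Of 164 symbols 157 matched a row, and 155 rows were tested. Lower in 3etv were 34 of them and higher 5, so that 25.2% passed against 31.3% of all tested genes. Their median log2 fold change was -0.055. Over all tested genes 15.4% were lower and 15.9% higher, and 20.2% and 10.7% of those with at least 6 log2 CPM. Leaving out 3etv embryo 2 or WT embryo 2 reduced the lower calls to 19 or 17. Lower calls over all genes fell too, to 11.2% or 11.5%. Higher calls were 8 without 3etv embryo 3, where 13.6% of all genes were higher. They were 4 without WT embryo 3 and 3 without each remaining embryo, where from 11.1% to 15.3% of all genes were higher. LSm and SMN complex genes, whose products form Sm-like rings or assemble Sm rings, were lower for 7 of 19 and higher for none, with a median of -0.16. Among SR cofactors and kinases 4 of 15 were lower and none higher. Genes of branch site recognition were lower for 4 of 15 and higher for 1. In the list of tri-snRNP, Prp19 complex and helicase genes 3 of 33 were lower. For the genes named snrnp, 1 of 7 was lower and 1 higher, and for the exon junction complex 2 of 7 were lower and 1 higher. hnRNP relatives with other symbols were lower for 5 of 29 and higher for 2. In the minor spliceosome list none of 6 passed, but that list holds no gene named snrnp, such as snrnp25, described below. Tissue-restricted regulators were lower for 8 of 24 and higher for none, with a median of -0.16.

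Of these genes, lsm6 (ENSDARG00000036995), a Sm-like protein of the U6 snRNP, had the lowest adjusted p. It had 22.9, 23.3 and 20.9 CPM in 3etv and 35.6, 38.4 and 35.3 CPM in WT, a log2 change of -0.71 (SE 0.082, edgeR adjusted p 3.79e-05). prmt5 (ENSDARG00000079605), the methyltransferase that modifies Sm proteins before ring assembly, had 125, 123 and 129 CPM in 3etv and 155, 159.6 and 154 CPM in WT (log2 fold change -0.31, SE 0.057, edgeR adjusted p 0.0011). gemin6 (ENSDARG00000105394), a subunit of the SMN complex, had 2.46, 3.73 and 4.09 CPM in 3etv and 5.89, 8.14 and 7.62 CPM in WT (log2 fold change -1.08, SE 0.20, edgeR adjusted p 0.0012). None of the 3 overlapped between the groups.

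rbfox1l (ENSDARG00000021184), a muscle splicing regulator in zebrafish, had 26.6, 20.9 and 22.5 CPM in 3etv and 37.6, 36.1 and 40.4 CPM in WT (log2 fold change -0.71, SE 0.096, edgeR adjusted p 1.32e-04). rbm24b (ENSDARG00000031809), whose family acts in muscle, had 2.52, 2.21 and 1.71 CPM in 3etv and 3.79, 4.38 and 4.67 CPM in WT (log2 fold change -0.99, SE 0.20, edgeR adjusted p 0.0024). elavl4 (ENSDARG00000045639), a neuronal RNA-binding protein, had 1.87, 2.12 and 2.54 CPM in 3etv and 4.68, 4.52 and 5.11 CPM in WT (log2 fold change -1.13, SE 0.19, edgeR adjusted p 5.90e-04). elavl4 and elavl3, also a tissue-restricted regulator here, are both on the early neuron list, where 3 of 5 genes were lower. isl1 of that list went the other way and did not pass (log2 fold change 0.27, edgeR adjusted p 0.067), with every 3etv embryo above every WT embryo. Muscle genes were lower in the same embryos for all 7 tested, as given above. The part of muscle and neuron markers in these values was not tested. acin1a (ENSDARG00000054290), an SR-related protein, had 1039, 1001 and 1023 CPM in 3etv and 1295, 1262 and 1150.1 CPM in WT (log2 fold change -0.28, SE 0.058, edgeR adjusted p 0.0029). snrnp25 (ENSDARG00000020363), a protein of the minor spliceosome, went the other way, at 23.6, 23.1 and 26.3 CPM in 3etv and 15.5, 17.8 and 14.2 CPM in WT (log2 fold change 0.62, SE 0.10, edgeR adjusted p 6.19e-04). The 6 genes of the minor spliceosome list did not share this rise: all had log2 fold changes below 0, and none passed. Among the genes named snrnp, snrnp35 was lower (log2 fold change -0.29, edgeR adjusted p 0.046). Each of the 8 list genes picked by lowest adjusted p passed in 14 of 14 alternatives. They were picked in these same data, so this is no separate evidence, and the share over all called genes was not computed.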

How the data were processed

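The authors deposited raw counts, whole reads per Ensembl gene, 1 column per embryo and no normalization. The submitters' processing notes list STAR, HTSeq and the build GRCz11, without versions; the annotation, strand and filter settings are not given in the sources used here. Per the labels' protocols, libraries were strand-specific and from poly-A RNA. In the header line a space stands for a tab between 2 3etv names, so that line was split at the space before columns were matched to samples by name. The 5 HTSeq summary entries were left out of library sizes; reads assigned to no gene made up from 52.8% to 53.6% of each column.

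The counts were fitted with edgeR 4.0.16 under R 4.3.3 (filterByExpr by group, TMM scaling, robust quasi-likelihood fit, genotype as sole term), with Benjamini-Hochberg adjustment over 18533 genes and a threshold of 0.05. Each standard error is the size of the log2 fold change over √F. Log2 ratios of a to b copies, with 0.5 counts added, were tested with limma 3.58.1 (trended eBayes) over all pairs. DESeq2 1.42.0 and limma voom were alternatives. Depth was from 18484238 to 28841169 gene counts per library.

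The members and lists were chosen with earlier results of these data known. Genes named in full are up to 10 largest rises and 10 largest falls past the threshold (mean log2 CPM of 1 or more), the 2 of highest CPM per class, called pairs, and 8 genes of the other lists with the lowest adjusted p; further members were named after their values were seen. Libraries of a group differed beyond sampling noise, with a chi-square over its degrees of freedom of 3.60 or more, so each was counted as 1 sample. RefSeq's list for GRCz12tu served for names and neighbours only.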

Additional observations from a re-analysis of the deposited data

How the results depend on the processing

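Against 17 called members (14 lower, 3 higher in 3etv), other scalings, DESeq2, limma voom and other low-count filters gave from 16 to 18. The share of all tested genes called in those fits ran from 23.4% without a low-count filter to 31.9% at a mean of at least 50 counts. It was 27.9% with DESeq2, against 31.3% in the main fit. At an adjusted p under 0.01, 9 were called (7 lower), while 18.7% of all tested genes were called and 9.28% were lower. Of the other splicing genes 17 were then lower and 2 higher. With the replicate number as a block, 11 members were called (9 lower), 2 of them snRNP protein genes and 4 SR genes. In that fit 24.4% of all tested genes were called and 11.9% were lower, and 19 other splicing genes were lower and 2 higher. For member pairs, 4 passed with and without the block, while 21.9% of all pairs passed with it and 29.6% without it. Deviations of same-numbered embryos correlated at -0.21, -0.032 and -0.16, and no WT embryo correlated best with the 3etv embryo of its own number, so that the numbers were not taken to pair embryos. DESeq2 called 3 other splicing genes higher in place of 5, and 14.2% of all tested genes higher. limma without its trend called 2 member pairs in place of 4; the cause was not tested. Leaving out each embryo, a fit with fewer samples, gave from 11 to 17 called members, from 8 to 13 lower and from 2 to 4 higher, while from 22.3% to 30.1% of all genes passed. Such fits gave from 17 to 32 other splicing genes lower and from 3 to 8 higher. Medians ran from -0.097 to -0.015 for SR, from -0.20 to -0.14 for snRNP protein, from 0.035 to 0.072 for SF3 and from -0.059 to -0.024 for all members. Some values near 0 changed sign. sf3b3 was -0.0084 without a low-count filter, and from -0.040 to 0.035 without an embryo. srsf1b ran from -0.16 to 0.019, the highest being without WT embryo 1. The log2 ratio difference ran from -0.071 to 0.063 for srsf6a over srsf6b and from -0.015 to 0.035 for hnrnpaba over hnrnpabb. srsf7b, with from 17 to 31 counts a library, had a standard error of 0.31. srsf3a had 0.27, with coefficients of variation of 33.8% in 3etv and 28.5% in WT. The srsf7 pair had too few counts to be tested at a mean of at least 50 counts.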
